A study of Homo sapiens with 2 samples.

Results

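Among TPH2-EGFP-positive cells sorted as serotonin neurons (SNs), a small group expressed combinations of SLC17A6, LHX1, LHX9, MAB21L1 and MAB21L2. The cells were selected on their own counts. A cell was taken when at least 3 of SLC17A6, LHX1, LHX9, ISL1, MAB21L1 and MAB21L2, the rule genes, each had at least 1 unique molecular identifier (UMI, 1 captured transcript) and when FOXA2 had at most 1 UMI. 69 of 13958 cells that passed the filters met this rule. They were 28 of 6385 cells in the library labelled WT (0.439%, exact binomial interval 0.292% to 0.633%) and 41 of 7573 cells in the library labelled FKO (0.541%, 0.389% to 0.734%), and the intervals overlapped. These are called the chosen cells. They were set beside FEV comparison cells of the same library, which had at least 1 FEV UMI and none of the 6 rule genes and numbered 6032 and 6502. Because the rule used these counts, every comparison of the chosen cells is a description, and no test was made.

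SNs were differentiated from WA09 (H9), a human embryonic stem cell line, and sorted by EGFP fluorescence at day 42. The WT cells carried an EGFP knockin at TPH2, which encodes the enzyme that starts serotonin synthesis in neurons. The FKO cells carried the same knockin and a FOXA2 knockout, made on a line picked as a clone after Cas9 cutting with end-joining repair to give an early stop codon. Each condition had 1 library from the 10x Genomics 3' kit (V3). Depth was 123064653 UMIs over 11052 barcodes for WT and 70588747 UMIs over 8806 barcodes for FKO. With 1 library per condition there is no replicate, so the 95% intervals given are exact and hold counting error only. The libraries shared 21 deposited cell barcodes, 6 of which passed the filters in both, and 0 of these belonged to a chosen cell.

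The targeted gene went against the labels. FOXA2 (ENSG00000125798) had 375 UMIs in the kept cells of the library labelled WT, or 4.31 CPM (UMIs of the gene scaled to 1e6 UMIs in all, 3.89 to 4.77). It had 1517 UMIs in the library labelled FKO, or 22.7 CPM (21.6 to 23.9). Transcript ends were counted, and such counts hold no information on an edit inside the gene. Other genes of the kept cells ran both ways: the floor plate genes CORIN and SHH were lower under the FKO label (3.22 and 0.824 CPM, and 5.93 and 2.91 CPM), FOXA1 and NTN1 were higher (2.55 and 9.48 CPM, and 5.41 and 12.3 CPM), and SPON1 was level (27.9 and 28.0 CPM). The paper reports FOXA2 protein staining in WT but not FKO cells, both differentiated for fewer days than the sorted cells. By quantitative PCR it gives lower SHH, NTN1 and SPON1 in cells made on the knockout line than in WT cells, also at an earlier day. Those cells carried an inducible FOXA2 that was not induced. Neither culture is described as sorted for TPH2-EGFP, so both differ from the present libraries in their cells as well as in day. The libraries are named by their labels throughout, and each direction between them rests on those labels. In the chosen cells, where the rule limited it, FOXA2 had 0 UMIs under the WT label and 2 under the FKO label.

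The chosen cells were deeper than their comparison cells. Their median was 14995.5 UMIs per cell in the library labelled WT, against 12652.5 in the FEV comparison cells. In the library labelled FKO it was 11079.0 against 7078.0. A deeper cell is more likely to show 3 rule genes, and when every cell was thinned to 2000 UMIs before the rule was applied, 3 and 2 cells were left. The highest doublet scores marked 1 of the 28 and 2 of the 41 chosen cells (3.57% and 4.88%), against 8.89% and 7.01% of the FEV comparison cells.

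LIM-homeodomain transcription factors, such as LHX1, LHX9 and ISL1, act in combinations that set the identity of neuron classes in the developing hindbrain and spinal cord. SLC17A6 encodes VGLUT2, the transporter that loads glutamate into synaptic vesicles of many excitatory neurons, and MAB21L1 and MAB21L2 are closely related genes that act in the development of the eye and other tissues. SNs depend on FEV, GATA2 and GATA3 among other factors, and on LMX1B, which is itself a LIM-homeodomain factor.

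The proposed markers were present in part. SLC17A6 (ENSG00000091664) was detected in 20 of the 28 chosen cells labelled WT (71.4%, 51.3% to 86.8%) and in 34 of the 41 labelled FKO (82.9%, 67.9% to 92.8%). LHX1 (ENSG00000273706) was detected in 17 and 24 cells. LHX9 (ENSG00000143355) was detected in 1 cell labelled WT, which held 22 UMIs, and in 20 cells labelled FKO. MAB21L1 (ENSG00000180660) and MAB21L2 (ENSG00000181541) were each found in 27 of the 28 cells labelled WT, and in 26 and 24 of the 41 labelled FKO. These values are what the rule selected, and the libraries differed most in LHX9.

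ISL1 and SST went against the working description of these cells. ISL1 (ENSG00000016082) was detected in 0 of 28 and 0 of 41 chosen cells. By 3 counts of the total this allows a share of cells with an ISL1 UMI of up to 10.7% and 7.32% (exact upper limits 12.3% and 8.60%), and it sets no limit on cells that express the gene below detection. SST (ENSG00000157005), the neuropeptide somatostatin, was detected in 0 of 28 cells and in 1 of 41, which held 6 UMIs. ISL1 was present elsewhere, in 27 kept cells labelled WT and 32 labelled FKO, of which 9 and 5 had exactly 1 other rule gene. SST followed ISL1 in very few cells: of its 505 UMIs in the library labelled WT, 448 came from ISL1 cells and 440 from a single cell, and of its 96 in the library labelled FKO, 82 and 72 did. No chosen cell therefore met the rule through ISL1.

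EBF3 and NRN1, proposed as markers but not used by the rule, were both present. They were proposed with earlier results of these data known, so their shares are a description and not independent support for the group. EBF3 (ENSG00000108001), a transcription factor of the EBF family that acts in neuronal differentiation, was detected in 60.7% (40.6% to 78.5%) of the chosen cells labelled WT and in 58.5% (42.1% to 73.7%) of those labelled FKO. In the FEV comparison cells the EBF3 shares were 0.812% and 0.877%. NRN1 (ENSG00000124785), which encodes the membrane-anchored protein neuritin that promotes neurite growth, was detected in 42.9% (24.5% to 62.8%) and 61.0% (44.5% to 75.8%). Its shares in the FEV comparison cells were 0.448% and 0.646%. In cells with mesenchymal markers, described with the SN genes, EBF3 was detected in 4.88% and 13.0% and NRN1 in 4.88% and 3.82%, so the shares in the chosen cells were above those of both other sets of cells. After thinning to 2000 UMIs, which left out 0 and 1 chosen cells and 22 and 51 comparison cells, EBF3 was still detected in 17.9% and 30.0% of the chosen cells against 0.0832% and 0.171%. NRN1 was then detected in 17.9% and 22.5% against 0.0666% and 0.217%.

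**Figure D1:**
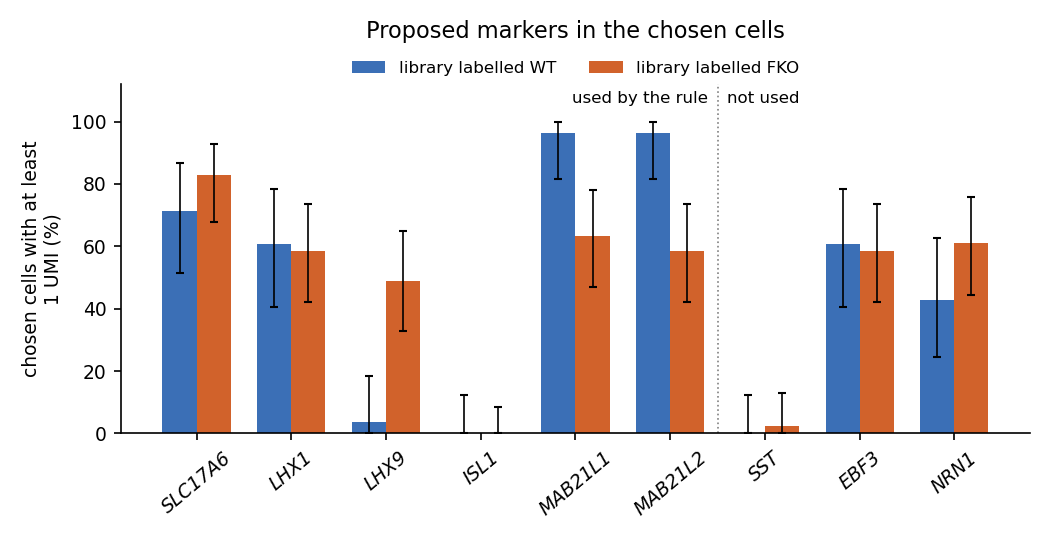
Share of chosen cells with at least 1 UMI of each proposed marker, in the library labelled WT (28 cells) and the library labelled FKO (41 cells). Bars are percentages with exact 95% binomial intervals, and ISL1 is at 0 in both libraries.

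The 2 libraries reached the rule through different combinations. In the library labelled WT, 26 of 28 chosen cells had both MAB21L1 and MAB21L2, joined by SLC17A6 in 10 cells, by LHX1 in 8 and by both in 7. In the library labelled FKO, MAB21L1 and MAB21L2 met in 9 of 41 cells. There the common sets were SLC17A6 with LHX9 and MAB21L1 in 13 cells and SLC17A6 with LHX1 and MAB21L2 in 12 cells. LHX1 and LHX9 were found together in 5 chosen cells labelled FKO and in 0 labelled WT. The levels followed the same order: MAB21L1 had 306 CPM (259 to 359) in the chosen cells labelled WT and 123 CPM (96.0 to 156) in those labelled FKO, while LHX9 had 45.2 CPM (28.3 to 68.4) and 188 CPM (154 to 227). SLC17A6 was closer, at 103 CPM (76.2 to 135) and 148 CPM (118 to 183), with overlapping intervals.

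Cells just outside the threshold had part of the same profile. With exactly 2 rule genes and at most 1 FOXA2 UMI there were 37 cells labelled WT and 105 labelled FKO, and with exactly 3 there were 20 and 37. NRN1 stood at 119 CPM with 2 rule genes and 231 CPM with 3 in the library labelled WT, and at 83.9 and 136 CPM in that labelled FKO. All chosen cells, with 3 or more rule genes, had 193 and 141 CPM of NRN1. Under the WT label its level therefore did not keep rising past 3. EBF3 stood at 34.2 and 62.7 CPM in the library labelled WT, and at 59.0 and 99.7 CPM in that labelled FKO. Among cells with no rule gene NRN1 had 0.772 and 1.68 CPM. Of the 15 genes named below as higher in the chosen cells, 13 under the WT label and 12 under the FKO label had a level in cells with 2 rule genes between those of the chosen cells and of cells with no rule gene. The other genes did not: under the FKO label CDH8 had 123 CPM with 2 rule genes and 113 CPM in the chosen cells. The 15 genes were picked for their large ratios in the chosen cells, so that choice itself favours a level in between. The share over all genes is not given, and these counts are a description.

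Against the FEV comparison cells, 129 of 8805 genes compared in both libraries (1.47%) were at least 2-fold higher in the chosen cells in both, and 49 (0.557%) were at least 2-fold lower in both. Among the genes higher in both were 5 rule genes, which the rule set at 0 in the comparison cells. Genes were compared where either group had a pooled CPM of at least 10. Within the library labelled WT, 9.46% of 9228 genes were at least 2-fold higher and 5.07% lower. Within the library labelled FKO, 4.04% of 10133 genes were higher and 3.04% lower. The median log2 ratio of all genes was 0.12 and 0.03. A gene under 10 CPM in the comparison cells was compared only where the chosen cells were higher, so it could not be counted as lower. Among genes with at least 10 CPM in the comparison cells the balance turned. Of these 3.69% were higher and 5.74% lower under the WT label, and 0.955% and 3.27% under the FKO label. With few chosen cells many single ratios carry wide counting error, and the shares past 2-fold are descriptions of these cells.

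Of the 15 genes with the largest ratios in both libraries, NRN1 and EBF3 led. NRN1 had 193 CPM against 0.511 in the library labelled WT, a log2 ratio of 8.56 (8.02 to 9.12), and 141 against 1.26 in that labelled FKO, a log2 ratio of 6.80 (6.32 to 7.28). The log2 ratio of EBF3 was 6.72 (6.11 to 7.31) and 6.48 (5.98 to 6.98). LHX5-AS1, a noncoding RNA gene next to the LIM-homeodomain gene LHX5, followed with 7.25 (6.97 to 7.52) and 5.58 (5.15 to 5.99). It was detected in 27 of 28 chosen cells labelled WT and 17 of 41 labelled FKO. These 3 genes had the largest ratios of the 15 in each library. Under the WT label all 15 passed the 50 CPM naming limit through the chosen cells alone. Their highest level in the comparison cells there was 33.9 CPM, for POU3F2, so none of the 15 could have been named as lower. Under the FKO label only POU3F2, DNER, EBF1 and ONECUT1 reached 50 CPM in the comparison cells (55.4, 53.9, 69.6 and 79.9 CPM).

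Of the other 12 genes 5 encode transcription factors. These are ONECUT3, POU3F2, EBF1, ONECUT1 and ESRRG, of which the ONECUT and POU3F genes act in early neuronal differentiation. ONECUT3 had log2 ratios of 3.15 (2.52 to 3.72) and 2.21 (1.86 to 2.54), POU3F2 of 2.18 (1.83 to 2.52) and 1.82 (1.53 to 2.09), and ONECUT1 of 3.54 (3.19 to 3.88) and 1.41 (1.14 to 1.68). EBF1, of the same family as EBF3, had 3.45 (3.04 to 3.83) and 1.65 (1.38 to 1.91). ESRRG had 2.31 (1.75 to 2.83) and 2.07 (1.60 to 2.50). The other 7 are of several kinds. CBLN2, a secreted synapse organizer, had 4.30 (3.86 to 4.71) and 2.37 (1.85 to 2.84). The cadherin CDH8 had 3.18 (2.74 to 3.58) and 1.78 (1.40 to 2.14). NKAIN3 stood at 4.66 and 3.05, TMEFF2 at 2.93 and 1.39, SPOCK1 at 1.45 and 2.30 and SULF2 at 2.75 and 1.44. DNER, which encodes a Notch-binding protein of neurons, had 152 against 19.0 CPM and 172 against 53.9 CPM. Only SPOCK1 among these 15 had its larger ratio in the library labelled FKO.

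**Figure D2:**
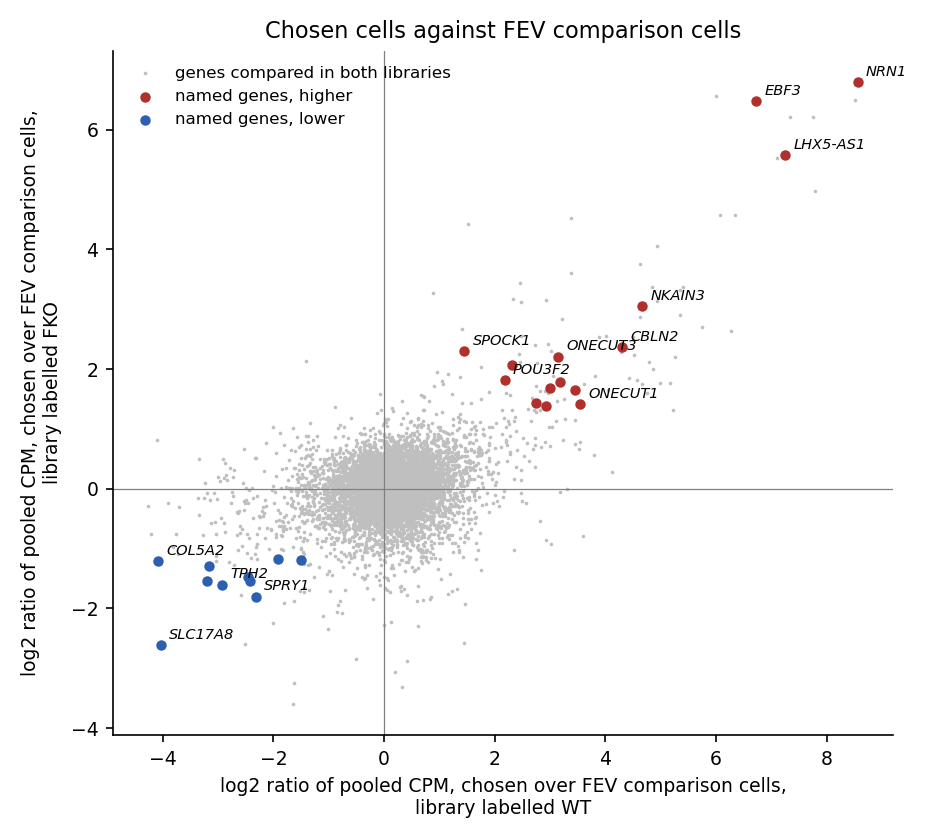
Log2 ratio of pooled CPM, chosen cells over FEV comparison cells, in the library labelled WT (x axis) and the library labelled FKO (y axis) for the genes compared in both. The 6 rule genes are left out, the 15 named higher genes are red and the 10 named lower genes blue, and NRN1, EBF3 and LHX5-AS1 lie at the upper right.

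The 10 genes with the lowest ratios in both libraries included SN genes. SLC17A8, which encodes VGLUT3, the vesicular glutamate transporter of many SNs, had 10.3 CPM in the chosen cells labelled WT against 169 in the comparison cells, a log2 ratio of -4.04 (-5.67 to -2.82), and 21.1 against 129 in the cells labelled FKO, a log2 ratio of -2.61 (-3.56 to -1.80). TPH2 had log2 ratios of -2.93 (-3.84 to -2.15) and -1.60 (-2.14 to -1.11). MAOB, which breaks down monoamines, had -3.20 (-4.26 to -2.32) and -1.54 (-2.10 to -1.04). The other named genes were SPRY1 (-2.32 and -1.80), IGFBP5 (-2.43 and -1.54), CDYL2 (-2.46 and -1.48), PLS3 (-3.17 and -1.29), COL5A2 (-4.08 and -1.21), the prohormone convertase gene PCSK1 (-1.50 and -1.19) and GALNTL6 (-1.91 and -1.17). COL5A2 rested on 2 UMIs in the chosen cells labelled WT.

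Most of the SN transcription factors and serotonin genes compared were at least 2-fold lower in the library labelled WT. FEV, which picked the comparison cells, is left out of the SN factors here. Of the other 8, 4 of the 5 compared there were at least 2-fold lower, with a median log2 ratio of -2.03, beside 5.07% of all genes lower. Under the FKO label 1 of 6 compared was at least 2-fold lower, beside 3.04% of all genes, and the median was -0.26; EN2 was higher and passed the filter through the chosen cells alone. GATA3 had 129 CPM against 621 in the library labelled WT, and 567 against 889.7 in that labelled FKO. LMX1B, which SNs need for their transporter and synthesis genes, had 2.05 against 34.0 CPM in the library labelled WT, on 1 UMI (log2 ratio -4.05, -9.35 to -1.57), and 31.7 against 75.9 CPM in the library labelled FKO (-1.26, -2.02 to -0.60). For the 8 genes of serotonin synthesis, transport and breakdown, the median log2 ratio was -2.25 in the library labelled WT (medians of the genes' own limits, -3.55 to -0.64) and -0.85 in that labelled FKO (-1.65 to -0.22). These ranges overlap, and the difference between the libraries was not tested. At full depth 6 of the 7 serotonin genes compared under the WT label and 2 of the 8 under the FKO label were at least 2-fold lower, beside the same 5.07% and 3.04% of all genes. With counts thinned to 2000 UMIs the medians were -1.23 and -0.80, and with the mean CPM of single cells -2.57 and -1.52. With at least 4 rule genes, which left 8 and 4 chosen cells, they were -1.92 and -1.26. Under a limit of 5% mitochondrial UMIs, which left 2 chosen cells labelled WT, the WT median was 0.00.

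For FEV, GATA3 and TPH2, 3 of the 17 SN genes listed, the shares of chosen cells were close to those of cells with mesenchymal markers. Cells with at least 3 of 7 mesenchymal markers, a reference taken after the data were seen, numbered 41 in the library labelled WT and 131 in that labelled FKO, with medians of 16927.0 and 12337.0 UMIs. They are a mixed reference: 12.2% and 20.6% of them had the highest doublet scores, and in the library labelled WT 85.4% had SHH, a floor plate gene. FEV, the SN factor used to pick the comparison cells, was detected in 85.7% of the chosen cells and 87.8% of the mesenchymal-marker cells labelled WT, and in 63.4% and 66.4% of those labelled FKO. The GATA3 shares were 60.7% and 61.0% in the library labelled WT, and 56.1% and 61.1% in that labelled FKO. The TPH2 shares were 28.6% and 29.3%, and 31.7% and 34.4%. At full depth the chosen cells lay at or below the reference. After thinning to 2000 UMIs this held for FEV in both libraries (42.9% and 43.9%, 35.0% and 40.5%), and for GATA3 (35.0% and 35.9%) and TPH2 (7.50% and 11.5%) in the library labelled FKO. In the library labelled WT the thinned GATA3 shares were 21.4% and 12.2% and the TPH2 shares 7.14% and 0. The UMIs were uneven among the chosen cells: in the library labelled FKO 1 cell held 62 of 322 GATA3 UMIs, with a median of 1 UMI per cell, and the highest FEV counts were 30 and 39 UMIs. The reference itself held 568 CPM of GATA3 in that library, so expression and free RNA cannot be told apart from these shares. The FEV level of the chosen cells over the mesenchymal-marker cells had a log2 ratio of 0.21 (-0.09 to 0.51) and -0.09 (-0.28 to 0.10). By the same ratio some of the 17 genes were set apart from the reference: INSM1 was higher in both libraries (3.91, 1.06 to 9.37, and 1.85, 0.71 to 2.98), as were GCH1 under the WT label (1.33, 0.08 to 2.64) and MAOA, EN1 and EN2 under the FKO label (1.29, 0.54 and 3.85). Lower were MAOA and LMX1B under the WT label (-3.16 and -2.84), TPH2 and SLC6A4 under the FKO label (-0.67 and -0.83) and MAOB in both (-1.06 and -0.70). STMN2, a gene of growing neurites, separated the same cells, with 5427 CPM in the chosen cells and 722 in the mesenchymal-marker cells labelled WT, and 5320.2 and 2991 in the library labelled FKO.

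**Figure D3:**
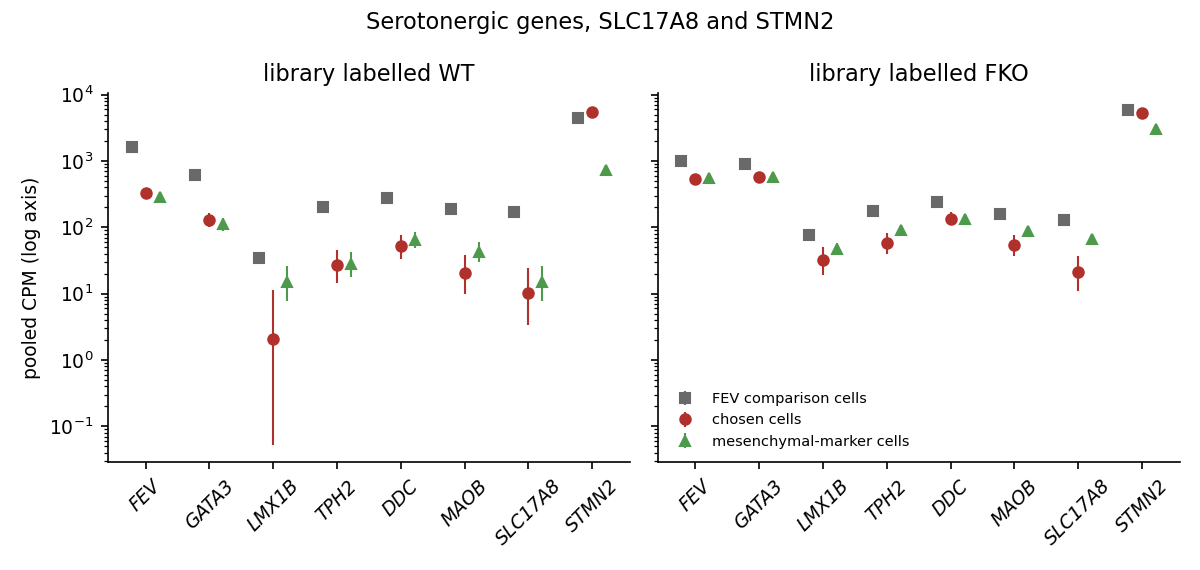
Pooled CPM on a log axis of 6 SN genes, SLC17A8 and STMN2 in FEV comparison cells, chosen cells and mesenchymal-marker cells of each library, with exact 95% Poisson intervals. FEV and GATA3 of the chosen cells lie with those of the mesenchymal-marker cells, and STMN2 lies with that of the comparison cells.

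Few transmitter genes other than SLC17A6 were detected at a high level. Of 3 vesicular glutamate transporter genes, SLC17A7 had 0 UMIs in the chosen cells of both libraries. The 5 genes of GABA and glycine transmission summed to 4.11 against 7.47 CPM in the library labelled WT, where 0 were compared. Under the FKO label they summed to 31.7 against 21.3 CPM. There 1 of 2 compared was at least 2-fold higher, beside 4.04% of all genes, and it passed the filter through the chosen cells alone. GAD1, which encodes a GABA-synthesizing enzyme, had 2.05 and 10.6 CPM in the chosen cells. The 3 cholinergic genes summed to 0 and 1.76 CPM. Of 5 catecholaminergic genes TH, the rate-limiting enzyme of dopamine synthesis, was higher in the chosen cells, with 34.9 against 16.6 CPM (log2 ratio 1.07, 0.28 to 1.75) and 22.9 against 6.81 CPM (1.75, 0.83 to 2.54), while SLC6A2, SLC6A3 and DBH had 0 UMIs. Under the FKO label TH passed the filter through the chosen cells alone.

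Of the LIM-homeodomain genes outside the rule, LHX5 was higher in both libraries and LMX1B, an SN factor, was lower in both. LHX5 had 45.2 CPM against 0.328 in the library labelled WT (interval of the log2 ratio 6.22 to 7.97) and 12.3 against 0.267 in the library labelled FKO (5.53, 3.99 to 6.91). LHX2 had 0 UMIs in the chosen cells labelled WT and 36.9 CPM against 0.321 in those labelled FKO (6.85, 5.87 to 7.84). LHX5 in both libraries, and LHX2 in that labelled FKO, passed the filter through the chosen cells alone. LHX3, LHX6, LHX8, ISL2 and LMX1A had 0 UMIs in the chosen cells of both libraries. Of the 6 LIM cofactor genes, whose proteins bind or compete for LIM domains, 4 in each library had at least 10 CPM in the comparison cells. Of these 1 was at least 2-fold higher and 1 lower in the library labelled WT, beside 3.69% and 5.74% of all genes under that limit. In the library labelled FKO 2 were higher and 0 lower, beside 0.955% and 3.27%. The other 2 passed the filter under the FKO label through the chosen cells alone. LMO4 was at 152 against 46.5 CPM and at 121 against 82.4 CPM.

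Factors that mark other neuron classes were detected in part of the chosen cells, and many were at 0. The 12 dorsal hindbrain and spinal factors summed to 57.5 against 6.98 CPM and 65.1 against 8.41 CPM. Among these OTP had 47.2 CPM in the chosen cells labelled WT, from 3 cells, and FOXP2, the most abundant in those labelled FKO, had 21.1 CPM from 6 cells. Among 12 ventral factors 7 had 0 UMIs in the chosen cells of each library, and EN1, a homeobox gene that SNs also express, had 22.6 against 72.0 CPM and 119.6 against 169 CPM. The 10 POU4 and neurogenic factors summed to 10.3 against 7.30 CPM and 54.5 against 7.29 CPM, and 7 and 3 had 0 UMIs. Under the FKO label POU4F1 had 15.8 against 0.445 CPM and NHLH1 had 17.6 against 1.71 CPM, and they passed the filter through the chosen cells alone. Of the 14 midbrain and forebrain factors 13 had 0 UMIs in the chosen WT-labelled cells, and 8 did in those labelled FKO; their sums were 14.4 against 28.7 CPM and 51.0 against 20.4 CPM. Of 15 rostrocaudal factors 11 and 10 had 0 UMIs, and HOXA2, a hindbrain gene, had 22.6 CPM against 5.02 in the library labelled WT and 1.76 against 0.249 in that labelled FKO. In the EBF list of 4 genes, EBF2 had 0 UMIs in the chosen cells labelled WT and 36.9 CPM against 0.249 in those labelled FKO.

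The chosen cells were neurons by their general markers. The 14 pan-neuronal genes summed to 19140.1 CPM against 12673 in the library labelled WT and to 17987 against 18788 in that labelled FKO, with median log2 ratios of 0.43 and 0.10. The neurofilament gene NEFL had 3775 CPM against 582 in the library labelled WT (log2 ratio 2.70, 2.63 to 2.76) and 1251 against 786 in the library labelled FKO (0.67, 0.56 to 0.78). SYT1, a calcium sensor of synaptic vesicles, was lower, with 761 against 2181 CPM and 1749 against 3073 CPM. Of 23 axon guidance genes, 13 had at least 10 CPM in the comparison cells labelled WT, of which 1 was at least 2-fold higher and 2 lower, beside 3.69% and 5.74% of all such genes. Under the FKO label 0 of 17 were higher and 2 lower, beside 0.955% and 3.27%. A further 6 and 4 passed the filter through the chosen cells alone. The ephrin receptor gene EPHA4 had 65.7 against 2.45 CPM and 26.4 against 8.69 CPM, and it is one of these, as is NRN1. Of 18 glutamate and GABA receptor genes 9 and 13 were compared, with medians of 0.28 and 0.03, beside 0.12 and 0.03 for all genes. The 19 neuropeptide genes summed lower in the chosen cells of both libraries, with 238 against 411 CPM and 938 against 1489.5 CPM, led by TAC1 at 84.2 against 324 CPM and 809 against 1418 CPM. Of these 19 genes 10 and 5 had 0 UMIs in the chosen cells. The lower sums rested on TAC1. Over the 8 and 7 neuropeptide genes compared, the median log2 ratio was 0.86 and 1.09. Of these 4 and 3 passed the filter through the chosen cells alone. Of 4 neuropeptide genes with at least 10 CPM in the comparison cells labelled WT 1 was at least 2-fold higher and 3 lower, beside 3.69% and 5.74% of all such genes. Of 4 under the FKO label 1 was higher and 1 lower, beside 0.955% and 3.27%. ADCYAP1 had 18.5 against 0.0852 CPM and 21.1 against 0.285 CPM, and NMU had 51.3 against 25.0 CPM and 26.4 against 7.55 CPM. ADCYAP1 in both libraries, and NMU in that labelled FKO, passed the filter through the chosen cells alone. CALB1 led the 3 calcium-binding genes, with 43.1 against 241 CPM and 194 against 219 CPM.

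The summed mesenchymal, floor plate, progenitor and glial markers were lower than in the comparison cells of both libraries. The 7 mesenchymal markers summed to 4.11 CPM against 32.8 in the library labelled WT, where 6 were at 0, and to 7.04 against 117 in the library labelled FKO, where 4 genes, COL1A1 among them, had 1 UMI each and 3 were at 0. The floor plate list holds FOXA2, which the rule limited in the chosen cells; its other 5 genes summed to 8.21 against 41.7 CPM and to 33.4 against 45.8 CPM, led by SPON1, with SHH at 0 in both. The 9 progenitor markers summed to 384 against 943 CPM and to 683 against 1008 CPM, led by VIM. The 7 cycling markers summed to 30.8 against 64.8 CPM and to 111 against 56.2 CPM. In the library labelled FKO 1 chosen cell held 10 of 10 MKI67 UMIs and 13 of 14 TOP2A UMIs came from 1 cell. The 8 astrocyte and oligodendrocyte markers summed to 2.05 against 9.89 CPM and to 35.2 against 40.4 CPM, with GFAP at 0 in both. Under the FKO label 2 were compared, with a median log2 ratio of 0.71. Of these 1 was at least 2-fold higher, on the chosen cells alone, and 1 lower, beside 4.04% and 3.04% of all genes. Of 7 peripheral sensory markers PRPH, a peripherin neurofilament gene, had 28.7 against 0.450 CPM and 40.5 against 0.428 CPM. Under the WT label 12 of its 14 UMIs came from 1 cell, the one with LHX9, and under the FKO label 6 of 41 cells held it. In both libraries EYA1, SCN10A and TLX2 had 0 UMIs. Of 7 immediate early and stress genes 6 were compared in each library, with medians of -0.23 and 0.26.

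Between the libraries, the chosen cells differed in many genes. After the median log2 ratio of 10217 genes (0.34) was taken off, 14.6% of genes were at least 2-fold higher and 13.5% at least 2-fold lower in the library labelled FKO, 1494 and 1377 genes. Without taking off this median the counts were 2270 and 664. In the chosen cells 1 UMI is 2.05 CPM under the WT label and 1.76 CPM under the FKO label. A gene near the 10 CPM limit thus rests on few UMIs, and its ratio carries wide counting error. At 50 CPM or more the shares were 9.89% higher and 10.1% lower. The share of genes past 2-fold between the libraries in the comparison cells is not given, so these shares are not particular to the chosen cells. Single log2 ratios are given before the median is taken off. The highest were those of CNTN2, an axonal adhesion gene (4.11 CPM in the library labelled WT, 179 in the library labelled FKO, log2 ratio 5.45, 3.56 to 8.52), CALB2 (4.99, 2.42 to 10.33), MIR9-1HG (4.91, 2.33 to 10.25), PLD5 (4.68, 2.10 to 10.03) and ULK1 (4.68, 2.10 to 10.03). In the chosen cells labelled WT CALB2, MIR9-1HG, PLD5 and ULK1 each had 1 UMI. In those labelled FKO 1 cell held 19 of the 37 CALB2 UMIs. The cells with LHX9 there held 96 of the 102 CNTN2 UMIs and 31 of the 35 MIR9-1HG UMIs. The lowest were MEIS1 (-6.08, -11.41 to -3.55) and MEIS2 (-4.44, -5.24 to -3.74), cofactors of HOX proteins, then KCNIP4 (-4.03, -7.14 to -2.04), ANXA2 (-3.31, -4.58 to -2.25) and GPC3 (-3.22, -5.18 to -1.73). Of the 68 ANXA2 UMIs in the chosen cells labelled WT, 35 came from 1 cell. MEIS2 had 651 CPM in the chosen cells labelled WT and 29.9 CPM in those labelled FKO. Its level in the FEV comparison cells was 28.7 and 5.18 CPM, so the order of the libraries was the same there. MEIS1 had 119 and 1.76 CPM, against 12.5 and 6.16 CPM in the comparison cells. The libraries also differed in depth and in mitochondrial UMIs, with medians of 9.18% and 5.61% over the deposited barcodes, and the part of these in the differences was not tested.

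Other genes set the libraries apart, and were picked after their values were seen. SHOX2, a homeobox gene of some excitatory interneurons, had 476 CPM (417 to 542) in the chosen cells labelled WT and 102 CPM (77.5 to 132) in those labelled FKO, against 101 and 46.2 CPM in the comparison cells. CRABP1, which binds retinoic acid, had the reverse order in pooled level, with 191 CPM (154 to 234) and 602 CPM (539.6 to 669), against 104 and 62.4 CPM in the comparison cells, but in the library labelled FKO 132 and 110 of its 342 UMIs came from 2 cells. The share of chosen cells with a CRABP1 UMI ran the other way, at 89.3% under the WT label and 53.7% under the FKO label. The mesenchymal-marker cells had 79.7 and 712 CPM of CRABP1. LHX5-AS1 was at 421 CPM (365 to 482) and 127 CPM (99.1 to 159.5).

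Within the library labelled FKO the chosen cells fell into cells with and without LHX9, 20 and 21, a split made after the data were seen. The medians were 12653.5 and 8878.0 UMIs. LHX9 is a rule gene, so a cell with LHX9 needed fewer of the others, and the lower LHX1 and MAB21L2 of the LHX9 cells partly restates the rule. LHX1 had 54.7 CPM with LHX9 and 268 CPM without, and MAB21L2 had 22.5 and 179 CPM. Of genes outside the rule, LHX5-AS1 had 38.6 and 233 CPM (log2 ratio with over without LHX9 -2.59, -3.63 to -1.69), CDH8 had 25.7 and 218 CPM (-3.08) and ESRRG had 19.3 and 148 CPM (-2.94, -4.47 to -1.68). LHX9 cells had more ROBO3, which controls midline crossing of axons, with 129 and 11.7 CPM (3.46, 1.81 to 5.80), and more CNTN2, with 309 and 23.3 CPM (3.73, 2.55 to 5.21). These levels came from part of the cells: ROBO3 was detected in 5 of the 20 cells with LHX9 and 1 of the 21 without, and CNTN2 in 12 and 4. LHX2 had 67.5 CPM in them, from 8 cells, and 0 UMIs without LHX9. EBF3, at 145 and 81.6 CPM, was less far apart. GATA3 was higher in the LHX9 cells, with 801 and 284 CPM, beside 568 CPM in the mesenchymal-marker cells of that library.

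Because homeodomain proteins bind DNA with a TAAT core, the 250 bases before each gene's start in the RefSeq table (GRCh38.p14) were searched for TAATTA, which reads the same on both strands and was chosen after the data were seen. It was present upstream of 5.37% of 27305 genes. Of the 15 named higher genes 10 had a sequence and 1 held it, EBF1; of the rule genes with a sequence (SLC17A6, LHX9, ISL1 and MAB21L1) only MAB21L1 held it. The bases before MAB21L1 (chr13:35476690-35476939, minus strand) and EBF1 (chr5:159097957-159098206, minus strand) are shown because they are the upstream sequences among these genes that hold the motif, in capitals, 5' to 3'. The match starts at base -113 and base -152 from the gene start. A match describes the letters of the window and not a bound site.
MAB21L1: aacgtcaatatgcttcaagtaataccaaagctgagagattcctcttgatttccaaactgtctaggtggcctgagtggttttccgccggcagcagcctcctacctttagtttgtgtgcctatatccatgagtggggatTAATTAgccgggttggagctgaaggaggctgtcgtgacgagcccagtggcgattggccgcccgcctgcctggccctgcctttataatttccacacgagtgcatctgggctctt
EBF1: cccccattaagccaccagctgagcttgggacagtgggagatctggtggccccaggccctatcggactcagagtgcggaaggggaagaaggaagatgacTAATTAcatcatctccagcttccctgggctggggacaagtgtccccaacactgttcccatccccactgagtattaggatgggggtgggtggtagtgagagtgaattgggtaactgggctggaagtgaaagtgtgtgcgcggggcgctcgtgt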

How the data were processed

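For each library the authors gave counts of UMIs, not normalized, by gene and barcode, made with Cell Ranger (7.1.0 per the file headers, 7.0 in the processing notes) on GRCh38. Kept cells had at least 1000 UMIs and 500 genes, and mitochondrial UMIs of 10% or less. Counts were pooled per cell set and library and scaled to CPM in Python 3.11.15 (numpy 2.4.6, scipy 1.17.1, pandas 2.3.3, matplotlib 3.10.9). Levels have exact Poisson intervals, shares exact Clopper-Pearson intervals and ratios exact conditional intervals, all at 95%. A ratio against 0 UMIs was taken against 3 counts. Scrublet (scanpy 1.11.5) marked 0 and 3 cells by its own threshold, too few to use, so the highest scores at 0.8% per 1000 deposited barcodes were marked instead, and these cells were kept. The intervals and code were tested on simulated data.

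Named genes are genes of 28 lists, and, without the rule genes, FEV and FOXA2, the 15 largest and 10 smallest ratios over comparison cells. These needed at least 50 CPM in the higher group and the same direction in both libraries, and were ranked by the smaller of their 2 log2 ratios in size. The 5 highest and 5 lowest FKO over WT ratios at 50 CPM or more are also named. Members and lists were chosen with earlier results of these data known. Alternatives changed the rule, filters, doublets, depth, comparison cells and scaling.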

Additional observations from a re-analysis of the deposited data

Results flagged for a closer look

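5 of the listed genes went in opposite directions over the FEV comparison cells in the 2 libraries, with intervals of the log2 ratio on opposite sides of 0. DCC, a netrin receptor gene, had -0.77 (-1.50 to -0.13) in the library labelled WT and 0.39 (0.12 to 0.64) in the library labelled FKO, a difference of 1.16. EPHA5, an ephrin receptor gene, had 3.01 (2.49 to 3.48) and -0.92 (-1.73 to -0.22), a difference of -3.93. LDB2, a LIM cofactor gene, had 0 UMIs in the chosen cells labelled WT, which gives a log2 ratio of -0.89 with 3 counts in place of 0 (exact upper limit -0.59), and 1.36 (0.52 to 2.10) in the library labelled FKO, a difference of 2.25 on that floor. SOX2, a progenitor gene, had -4.10 (-6.38 to -2.56) and 0.82 (0.46 to 1.15), a difference of 4.92. STMN2 had 0.30 (0.24 to 0.35) and -0.13 (-0.18 to -0.07), a difference of -0.42. With 1 library per condition these differences were not tested.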

How the results depend on the processing

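Under alternative settings 38 values kept their direction and stayed within their interval or within 1.5 times the reported count, 23 moved further and 1 lost its direction. Values are given for the library labelled WT and then FKO. The share of chosen cells was 1.02% and 1.93% with at least 2 rule genes, 0.125% and 0.0528% with at least 4, and 0.0473% and 0.0268% when the rule was applied to cells thinned to 2000 UMIs, since fewer or more cells then met it. Genes at least 2-fold higher in both libraries (129) and lower in both (49) numbered 305 and 82 with at least 4 rule genes, 460 and 104 with counts thinned to 2000 UMIs, and 28 and 15 at 50 CPM or more, of 8805, 8659, 8937 and 3082 genes compared. Of the 129, 67 were among the 305 and 68 among the 460, and of the 49, 11 were among the 82 and 11 among the 104. At 5% mitochondrial UMIs 86 genes were higher, 37 of them among the 129, and 7 of the 49 were lower again. The lower count was 10 at 5% mitochondrial UMIs and 108 with the mean CPM of single cells. Genes higher and lower in the library labelled FKO (1494 and 1377, 14.6% and 13.5% of those compared) numbered 843 and 697 (15.2% and 12.6%) with at least 4 rule genes, 986 and 871 (21.0% and 18.5%) with thinned counts, 407 and 417 (9.89% and 10.1%) at 50 CPM or more, and 2270 and 664 (22.2% and 6.50%) with no median taken off. The higher count was 832 (8.76%) at 5% mitochondrial UMIs. That limit left 2 chosen cells labelled WT, where 1 UMI is 32.8 CPM, and the median of the 8 serotonin genes there was 0.00 in place of -2.25. Fewer UMIs or genes entered the stricter settings by construction; the cause of other moves was not tested. Thinned counts left 56000 and 80000 UMIs, where 1 UMI is 17.9 and 12.5 CPM. At least 4 rule genes left 8 and 4 chosen cells, where 1 UMI is 7.34 and 21.3 CPM.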
